A study of Homo sapiens with 2 samples.

Results

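miR-1246 and miR-1290 are a pair of short human microRNAs (miRNAs), and 1 probe for each was read on 2 miRNA arrays of exosomes, the small vesicles that cells release. They were taken by the scanner's probe names, hsa-miR-1246 and hsa-miR-1290, and make up 2 of the 2565 miRNA probes of each array. They were chosen for their higher signal in HuH-7-M exosomes. Among the 1593 miRNAs above the BLANK background on both arrays, they had the 2 highest log2 differences after normalization. After plain subtraction of that background they had the third-highest (miR-1246) and the highest (miR-1290). Over all 2565 probes, without this filter, their normalized differences ranked 2 (miR-1246) and 3 (miR-1290). The higher signal of the pair is therefore a description here and was not tested. The vesicles came from HuH-7, an established line of human hepatocellular carcinoma cells. One culture is labelled HuH-7-P and the other HuH-7-M. No label says what P or M stands for or whether either is a single clone, and the series title speaks of highly intrahepatic metastatic lines. Both cultures were grown with 10% fetal bovine serum and moved to advanced DMEM before the vesicles were pelleted at 110000 g for 70 min at 4 °C, per the labels' protocols. There was 1 Cy5-labelled array per culture, so no replicate spread between cultures exists and no test could be made. The extraction protocol names cells as the source of RNA, while the sample titles name exosomes.

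A miRNA guides Argonaute proteins to messenger RNAs through its seed, the bases near its 5′ end, and the bound messenger is silenced. miR-1246 and miR-1290 are often reported together in the RNA of tumour-derived vesicles and serum. The mature sequence of miR-1246 also lies within U2 small nuclear RNA, a part of the spliceosome, and a hybridisation probe reads any labelled RNA that holds the sequence. Whether the miR-1246 signal came from its own hairpin or from U2 was not tested. Nor was it tested whether the probe for miR-1290, which resembles miR-1246 in sequence, also read U2.

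The mature sequences are shown because the pair resemble each other more than their seeds do. Written 5′ to 3′ as RefSeq gives them for build GRCh38.p14, with the seed (bases 2 to 8) in capitals, they are:
miR-1246: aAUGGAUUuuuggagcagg
miR-1290: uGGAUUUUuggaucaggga
The seeds AUGGAUU and GGAUUUU differ, so the pair would be placed in separate seed families, and 0 other array miRNAs with a RefSeq sequence carried either seed. The longest run of bases they share is 12 bases long, at positions 3 to 14 of miR-1246 and 1 to 12 of miR-1290, and stands in capitals here:
miR-1246: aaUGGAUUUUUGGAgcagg
miR-1290: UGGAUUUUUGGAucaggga
Shifted by 2 bases, the sequences overlap at 17 positions and are identical at 16. The single mismatch is G15U, with positions counted from the 5′ end of miR-1246 and its base given first. Both miRNAs are 19 bases long, and G and C make up 42.1% of each.

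The genes of the pair lie apart. The mature miR-1246 maps to chr2:176601024-176601042 on the minus strand, inside the MIR1246 hairpin, which is 73 bases long and is shown with the mature part in capitals:
MIR1246 hairpin: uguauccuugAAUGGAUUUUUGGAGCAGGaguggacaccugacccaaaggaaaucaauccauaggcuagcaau
No other gene of the RefSeq table overlaps this hairpin, and the nearest on either side are the long non-coding RNA genes LOC124907910, 11049 bases away, and LINC01116, 10385 bases away. The mature miR-1290 maps to chr1:18897078-18897096 on the minus strand. MIR1290 lies within ALDH4A1 (chr1:18871430-18902555), which encodes a mitochondrial enzyme of proline breakdown. The gene table used does not give exons, so exonic or intronic placement is not stated.

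Both miRNAs were several-fold brighter on the HuH-7-M array. The spot median of miR-1246 was 254.9 on HuH-7-P against 932 on HuH-7-M. The BLANK spots, which carry no probe and set the background, had means of 59.7 and 58.7 on the same arrays. After subtraction of the BLANK mean the miR-1246 signal was 195 in HuH-7-P and 873 in HuH-7-M exosomes, a ratio of 4.48. The HuH-7-M array was thus the brighter for miR-1246 before and after the background was taken off. The spot median of miR-1290 was 125 on HuH-7-P against 396 on HuH-7-M. Its BLANK-subtracted signal was 65.0 in HuH-7-P and 337 in HuH-7-M exosomes, a ratio of 5.18. miR-1290 also had the brighter spot on HuH-7-M, by the larger ratio of the pair on this scale.

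All 4 readings lay above both background limits. The BLANK limit (mean plus 2 SD of the BLANK spots) was 62.3 on HuH-7-P against 61.2 on HuH-7-M. A stricter limit came from the No Probe spots, at 86.9 and 89.9. miR-1246 was at 2.93 times this stricter limit on HuH-7-P against 10.4 times on HuH-7-M. miR-1290 was at 1.44 times and 4.40 times, so its HuH-7-P reading is the one nearest to background. In order of brightness among the 2565 miRNA probes, miR-1246 stood 282nd on HuH-7-P and 99th on HuH-7-M. miR-1290 stood 541st on HuH-7-P and 194th on HuH-7-M. Brightness also depends on the probe, so these places do not compare amounts of different miRNAs.

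On the normalized scale (normexp background correction with an offset of 50, quantile normalization, log2), miR-1246 read 7.93 for HuH-7-P and 9.77 for the HuH-7-M array. Its difference of 1.83 corresponds to 3.56-fold. For miR-1290 the normalized log2 values were 6.85 and 8.62, a difference of 1.77 or 3.42-fold. The offset pulls differences of dim probes toward 0, and it does so more for miR-1290, the dimmer spot on each array. Within an array, repeated spots of 8 control probes had a log2 SD of 0.12, which gives 0.17 for a difference between 2 single spots. The differences of the pair are 10.5 and 10.2 times that technical spread, which leaves out any spread between cultures, RNA preparations or hybridisations. Since the pair were chosen on these differences, the multiples describe size only and are no test. Between the pair the normalized differences were 0.058 apart, and on the BLANK-subtracted scale miR-1290 had the larger by 0.21. Each gap is a difference between 2 spot differences. Its technical spread is therefore wider than that of 2 single spots, 0.17 with the offset and 0.20 when BLANK-subtracted. Neither gap is read as a difference between the members.

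Few measured miRNAs reached 2-fold in this direction. Of the 1593 miRNAs above the BLANK limit on both arrays, 7 (0.439%) stood 2-fold or more higher on HuH-7-M on the normalized scale, the pair among them, while 27 (1.69%) were lower by 2-fold or more. On the BLANK-subtracted scale without scaling between arrays, 53 (3.33%) were at least 2-fold higher and 71 (4.46%) lower. Since the pair were chosen on this contrast, nothing is read from their place in these counts. The middle 90% of the measured miRNAs had normalized differences from -0.40 to 0.44, with a median of 0.01. Among the 258 other measured miRNAs whose HuH-7-P spot median lay between those of miR-1290 and miR-1246, that range was -0.70 to 0.57. The highest of these was 1.20, with 3 of the 258 past 2-fold higher and 5 past 2-fold lower on the normalized scale. BLANK-subtracted, 5 were past 2-fold higher and 14 lower.

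**Figure D1:**
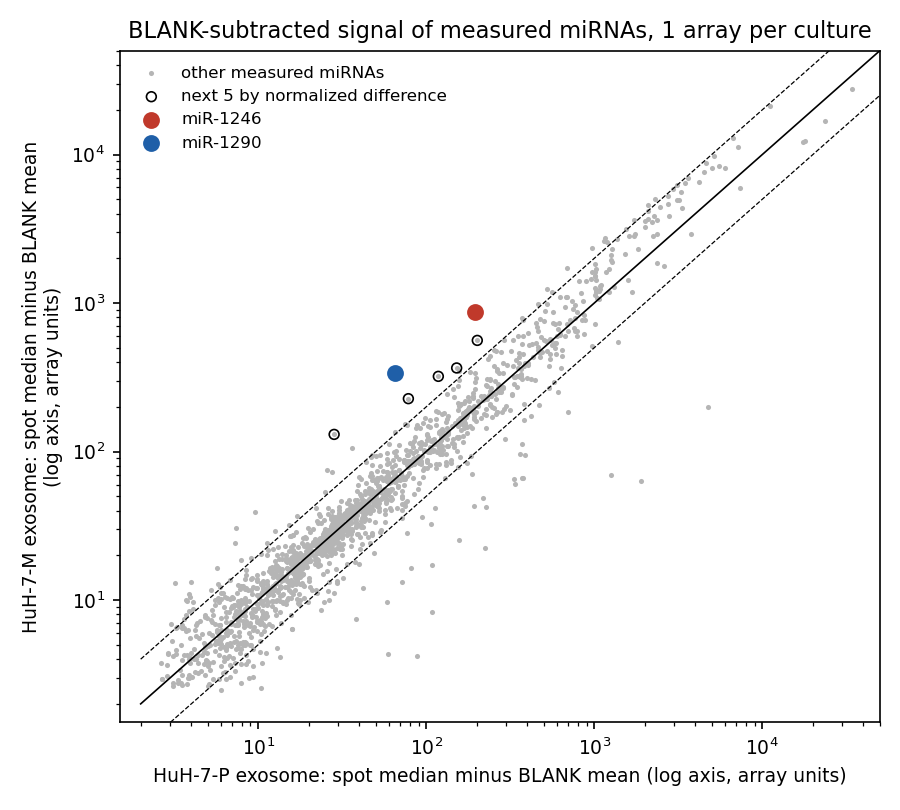
Each point is 1 miRNA above the BLANK limit on both arrays, with its BLANK-subtracted spot median on HuH-7-P (x axis) and HuH-7-M (y axis), both on log axes; the solid line marks equal signal and the dashed lines 2-fold. miR-1246 (195 and 873) and miR-1290 (65.0 and 337) lie above the upper dashed line, as do the 5 ringed miRNAs next in normalized difference.

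The measured miRNAs next below the pair in normalized difference were miR-4732-5p at 1.26, miR-4800-3p at 1.23, miR-4730 at 1.20, miR-4648 at 1.12 and miR-4258 at 1.08. A gap of 0.52 (log2) separated miR-1290 from miR-4732-5p on that scale. On the BLANK-subtracted scale no such gap was present. There miR-1290 (2.37) was followed by miR-4800-3p (2.20), miR-1246 (2.16), miR-5096 (2.06) and miR-1908-3p (2.05). miR-5096 and miR-1908-3p did not pass the No Probe limit on both, their BLANK-subtracted signals on HuH-7-P being 7.33 and 9.52. miR-4800-3p was above it, with spot medians of 88.1 and 189.

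The miRNAs with readings most like those of each member were found by the distance between pairs of BLANK-subtracted log2 signals over the 2 arrays, among miRNAs past the No Probe limit on both. For miR-1246 the nearest were miR-4732-5p (distance 0.64), miR-4707-5p (0.85), miR-4486 (0.93), miR-3195 (0.95) and miR-6778-5p (0.96). Their BLANK-subtracted log2 differences ran from 0.91 to 1.48, below the 2.16 of miR-1246. For miR-1290 they were miR-4648 (0.63), miR-4730 (0.86), miR-4428 (1.14), miR-1225-3p (1.16) and miR-371b-5p (1.16), with differences from 0.78 to 1.54 against its 2.37. The members themselves were 2.10 apart. The pair were chosen for high differences, so smaller ones in their neighbours largely follow from that choice. With 2 arrays this measure describes a likeness of readings only.

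Some other miRNAs on the array share a shorter run of sequence with the pair. RefSeq held a mature sequence for 2253 of the 2565 probe names, and the 12-base run occurred in 0 of the others. In alignments without gaps, other sequences matched miR-1246 at 13 positions at most and miR-1290 at 14 at most, against 16 between the pair. The closest sequence was sought for each member separately. A run of 8 or more bases shared with either member was found in 13 other miRNAs. Of these 13, 6 (46.2%) were measured on both arrays, against 62.1% of all miRNA probes. The median normalized difference of the 6 was 0.07. On the normalized scale 1 of the 6 was at least 2-fold higher and 0 lower, and on the BLANK-subtracted scale 2 were higher and 0 lower. The sequences of 4 of the 6 are given with the shared run in capitals:
miR-515-3p: gagugccuucUUUUGGAGCguu
miR-4732-5p: uguagagcagGGAGCAGGaagcu
miR-6762-5p: cggggccaUGGAGCAGccugugu
miR-1287-5p: ugcUGGAUCAGugguucgaguc

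miR-515-3p holds the longest run, 9 bases in common with positions 8 to 16 of miR-1246, and read 62.7 on HuH-7-P against 63.1 on HuH-7-M, next to the BLANK limit. miR-4732-5p ends its 8-base run as miR-1246 does, at positions 12 to 19 of the latter, and had spot medians of 261 and 619. It was the 1 relative with a run of 8 or more that passed 2-fold on the normalized scale, and also the miRNA whose readings were nearest to those of miR-1246. miR-6762-5p, whose run covers positions 11 to 18 of miR-1246, read 233 and 246 (normalized difference 0.10). Its run overlaps that of miR-4732-5p along miR-1246, and its signals on the arrays were nearly equal. miR-1287-5p shares positions 9 to 16 of miR-1290 and read 98.7 and 96.2, a normalized difference of 0.00. The other 2 measured relatives, miR-378j and miR-548ab, had normalized differences of 0.05 and 0.25 and did not pass the No Probe limit on both arrays. BLANK-subtracted, miR-548ab, a dim spot at 67.7 and 77.4, was past 2-fold as well, at 1.23. The 8-base run of miR-548ab, UGGAUUUU, lies within the 12 bases that the pair share, at positions 3 to 10 of miR-1246. Parts of those 12 bases also occur in relatives that were not measured on both arrays. Lowering the run to 7 bases gave 63 miRNAs, of which 39 were measured, with a normalized median of 0.07. That share, 61.9%, is close to the 62.1% of all miRNA probes. Of these 39, 1 was at least 2-fold higher on the normalized scale, again miR-4732-5p, and 4 were higher and 1 lower when BLANK-subtracted. How far either member's probe also binds the other member was not tested.

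**Figure D2:**
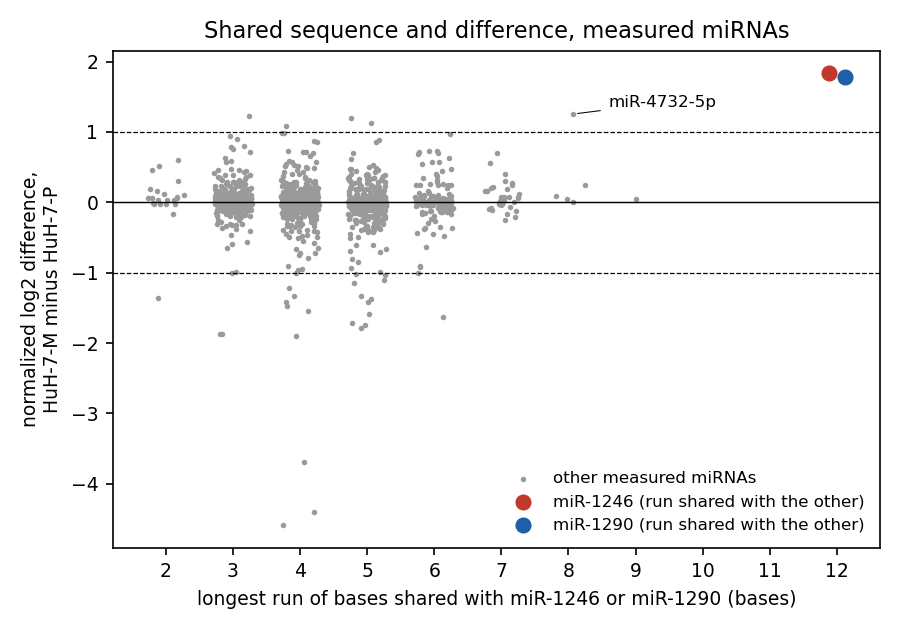
Each point is 1 measured miRNA with a RefSeq sequence, placed by the longest run of bases it shares with miR-1246 or miR-1290 (x axis, bases, points spread sideways for visibility) and by its normalized log2 difference (y axis); dashed lines mark 2-fold. miR-1246 and miR-1290 stand at a run of 12 with 1.83 and 1.77, and among miRNAs with runs of 7 to 9 only miR-4732-5p passes 2-fold on this normalized scale.

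Most other miRNAs with the U-rich stretch of the pair were not above background. UUUUU occurred in the mature sequence of 33 other array miRNAs, of which 6 (18.2%) were measured on both arrays, against 62.1% of all miRNA probes. The normalized differences of these 6 ran from 0.016 to 0.044. The brightest on HuH-7-M was miR-4455, at 96.8 on HuH-7-P against 96.9 on HuH-7-M, followed by miR-129-5p at 76.5 and 76.9. Both were nearly equal on the arrays. Mature sequences of 19 bases or fewer, the length of the pair, were found for 204 other miRNAs. Of these, 150 (73.5%) were measured, with a median normalized difference of 0.0040. On the normalized scale 2 were at least 2-fold higher and 3 lower, against 0.439% and 1.69% of all measured miRNAs. BLANK-subtracted, 7 were higher and 3 lower, against 3.33% and 4.46%.

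Numbering in miRBase, the registry of miRNA names, placed 141 other array miRNAs between miR-1178 and miR-1308, the range that holds both members. Of these 141, 95 (67.4%) were measured, against 62.1% of all miRNA probes. On the normalized scale 0 of the 95 were at least 2-fold higher while 1, miR-1296-3p, was lower (-1.87). The shares over all measured miRNAs were 0.439% and 1.69%. BLANK-subtracted, 2 of the 95 were higher, at most by 1.11, and 5 lower, against 3.33% and 4.46%. The median normalized difference of the 95 was 0.02 and the highest was miR-1225-3p at 0.72. The brightest on HuH-7-M were miR-1260b (spot medians 7277 and 11230), miR-1237-5p (3390 and 4416), miR-1260a (2330 and 3895) and miR-1228-5p (2414 and 2997). These 4 were brighter on HuH-7-M before normalization, by 0.32 to 0.76 in BLANK-subtracted log2, and lay between -0.31 and 0.08 after quantile normalization.

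ALDH4A1, the gene that holds MIR1290, also holds MIR4695, the nearest RefSeq gene before MIR1290, 13796 bases away. miR-4695-5p read 777 on HuH-7-P against 827 on HuH-7-M, a normalized difference of -0.03. miR-4695-3p read 205 and 293, a difference of 0.57. Neither miRNA of the same host gene passed 2-fold on this scale.

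Both member spots lie in block 5 of the array, miR-1246 in column 9 and row 3 and miR-1290 in column 2 and row 2, which puts them 7 columns apart. Of the 8 spots around miR-1246, 3 were measured, with normalized differences from -0.07 to 0.03. The spots around miR-1246 read at most 145 on HuH-7-P against 146 on HuH-7-M, far below the member's own 932. Of the 8 spots around miR-1290, 6 were measured, with differences from -0.01 to 0.28. The brightest of them, miR-1202, read 363 and 443. Over the block, 55 (70.5%) of the 78 other miRNA probes were measured, against 62.1% of all miRNA probes. These 55 had a normalized median of 0.0030. On that scale 0 of them were at least 2-fold higher and 1 lower, against 0.439% and 1.69% of all measured miRNAs. BLANK-subtracted, 3 were higher and 3 lower, against 3.33% and 4.46%. The 3 higher were miR-5096 at 2.06 (against 2.16 for miR-1246), miR-4793-5p at 1.75 and miR-483-3p at 1.39, and none of them touches a member's spot. The high readings of the pair on HuH-7-M thus lay in single spots and not in the measured spots beside them.

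**Figure D3:**
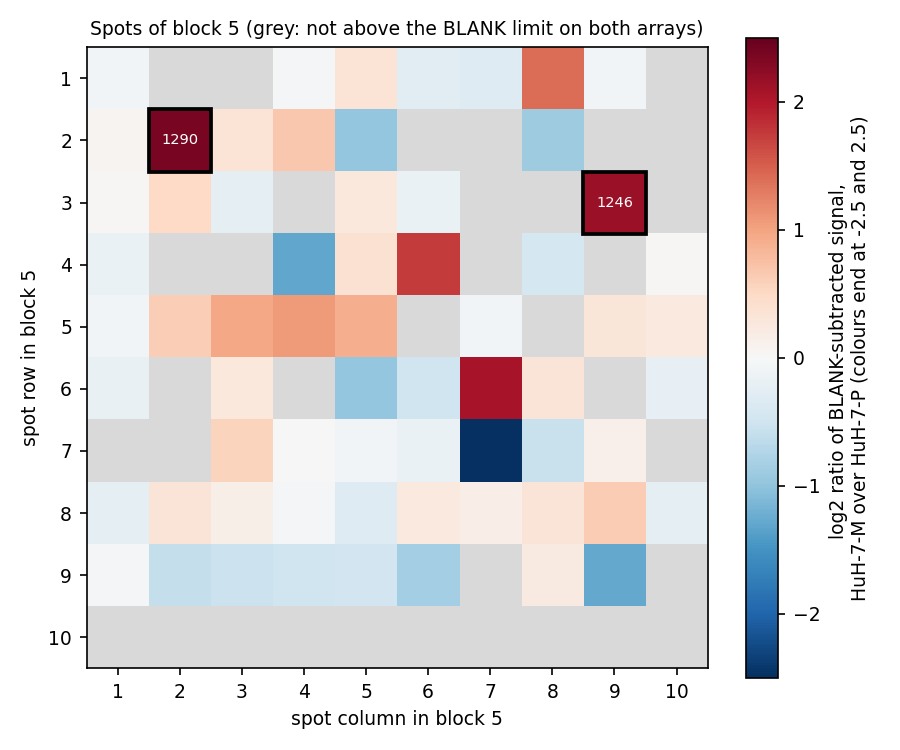
Spots of block 5 by column (x axis) and row (y axis), coloured by the log2 ratio of BLANK-subtracted signal, HuH-7-M over HuH-7-P; grey spots were not above the BLANK limit on both arrays. The framed spots of miR-1290 (2.37) and miR-1246 (2.16) are dark red, and the coloured spots that touch them lie between -0.89 and 0.49.

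The size of the difference depended on the scale. The Spike Control spots were brighter on HuH-7-M by 0.58 (log2), and their part in the differences of the pair was not tested. On a scale set to these spots the median of the measured miRNAs moved to -0.58, and miR-1246 stood at 1.33 (2.52-fold) and miR-1290 at 1.17 (2.25-fold). They were then the 2 miRNAs at least 2-fold higher, with 73 lower. Relative to the median of the measured miRNAs on that scale they kept the highest and second-highest values. When the arrays were scaled to the median measured miRNA, the calls split as 20 higher and 24 lower, against 7 and 27 with quantile normalization, and the pair stood at 1.92 and 1.76 there. In the authors' deposited table, whose values carry no added offset, miR-1246 had 160 in HuH-7-P and 734 in HuH-7-M exosomes (log2 difference 2.19). miR-1290 had 53.4 and 283 in the authors' deposited table (2.41). The row identifiers of that table and the probe names of the scanner output agreed for both members, although they disagree for many other miRNAs, miR-4732-5p being named here by the scanner output.

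The scanner output holds a further intensity column, headed BG_Median, whose logarithm correlated with that of the spot median across miRNA probes at r = 0.992 on each array, which is not the behaviour of a local background. This r is across probes of 1 array, which share their chip. At the miR-1246 spot this column read 267 on HuH-7-P against 1183 on HuH-7-M, above the spot medians of 254.9 and 932. At the miR-1290 spot it read 105 and 384. Used as a background for normexp, it turned the differences to -0.41 for miR-1246 and -0.027 for miR-1290, so the calls rest on not treating it as a background. At the 4 member readings it held most of the spot's signal or more.

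**Figure D4:**
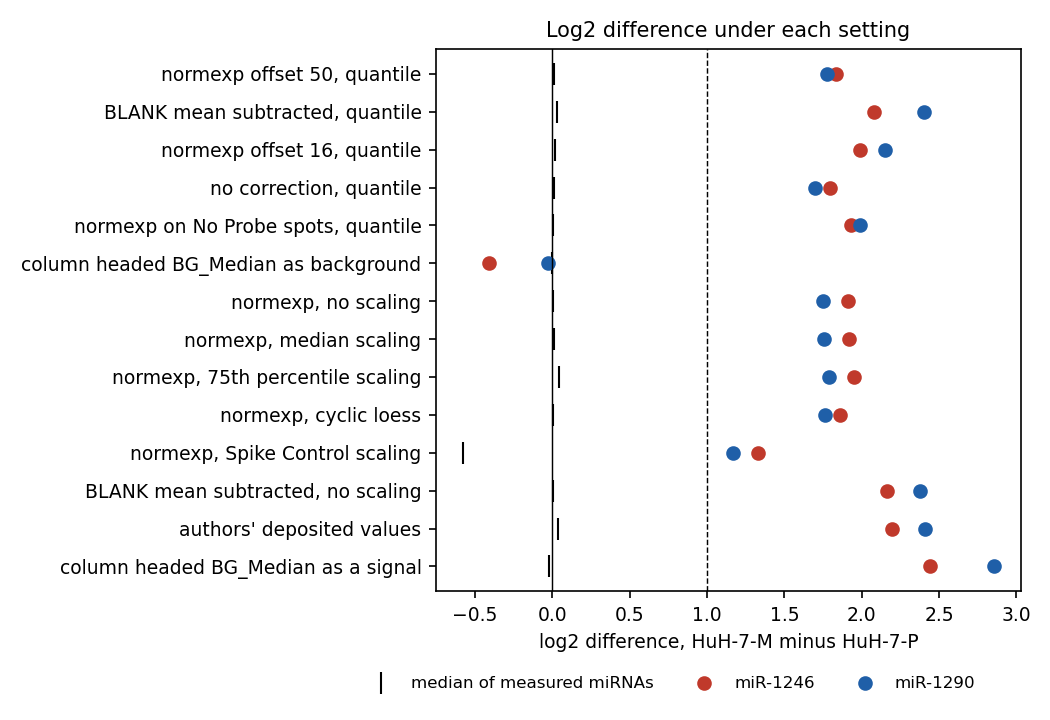
Log2 value on HuH-7-M less that on HuH-7-P (x axis) for miR-1246 and miR-1290 under each background and scaling setting (y axis), with a tick at the median of the measured miRNAs; lines mark 0 and 2-fold. The points lie from 1.17 to 2.86, except with the column headed BG_Median as background, where they are -0.41 and -0.027.

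On the array as a whole, 1669 miRNA probes on HuH-7-P against 1671 on HuH-7-M exceeded the BLANK limit and 790 exceeded the No Probe limit on both. Of 4 hepatocyte miRNAs, 4 were measured but dim, with miR-122-5p, the main liver miRNA, at 99.7 and 126, and 2 of the 4, miR-122-5p and miR-885-5p, past the No Probe limit on both arrays. Summed over the 4, the BLANK-subtracted signal was 111 on HuH-7-P against 140 on HuH-7-M. The 4 miRNAs of blood cells, such as the red-cell miR-451a, summed to 57.6 and 51.4 and did not exceed the No Probe limit on both arrays. Of 4 miRNAs of endothelium and stroma, 1 was measured (miR-199a-5p), and their sums were 13.8 and 16.4. No measured marker of these lists differed by 2-fold on the normalized scale, and their part in the readings of the pair was not tested.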

How the data were processed

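Exosome RNA of the HuH-7-P culture and of the HuH-7-M culture was read on 1 single-colour miRNA array per culture. Per the file headers, the deposited scanner output gives a spot median intensity for 3200 spots, combined over 3 scanner gains and without background subtraction. The authors' deposited value table has 2552 rows, of which 1585 hold an intensity value on both arrays. The values of these 1585 were rebuilt, within 1e-06 plus 1e-06 of the value, from the spot median minus a BLANK mean (top and bottom 5% left out). That result was divided by the median such difference (30.5 and 29.8) and multiplied by 25, so the values are linear. The column medians are 24.9 and 24.8. The software that made them is not stated in these sources.

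The signal is the spot median minus the mean of 320 BLANK spots. The normalized value used normexp on the BLANK spots (nec in limma 3.58.1, R 4.3.3; offset 50), quantile normalization over miRNA probes and log2. Background limits were the mean plus 2 SD of BLANK or of 85 No Probe spots after leaving out 5% at each end. The pipeline was tested on simulated data whose noise came from the spread of control and BLANK spots within an array. The simulation holds no spread between cultures and no gain difference between arrays, so it does not bear on the readings of the pair. The number of arrays limits precision.

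The members, lists and rules for named miRNAs were chosen with earlier results of these data known. Named were the members, the measured relatives sharing 8 or more bases, the 5 nearest in readings and the 5 next differences. Up to 4 brightest of the numbered and UUUUU lists and fixed cell type markers were also named. The rule for relatives had been at most 10, longest run first, with ties by name. Relatives not measured on both arrays were left unnamed, and miR-6762-5p, outside that 10, was named. Lists of length and array block were added after values were seen. miRNA sequences, coordinates and genes are from RefSeq tables of GRCh38.p14.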

Additional observations from a re-analysis of the deposited data

Results flagged for a closer look

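The scanner column headed BG_Median was not used for the main measurement, and signal was present there at both member spots. The BLANK spots read 59.7 on HuH-7-P against 56.9 on HuH-7-M in this column, with limits of 70.0 and 66.8 (mean plus 2 SD). After subtraction of those BLANK means, miR-1246 had 207 on HuH-7-P against 1126 on HuH-7-M, a ratio of 5.43. miR-1290 had 45.1 and 327, a ratio of 7.24. Among the 1078 miRNAs above the column's limits on both arrays these were the second-highest and the highest log2 differences. The column comes from the same spots and scan as the spot median, so it is no replicate, and what it holds was not tested.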

How the results depend on the processing

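No paired analysis was possible because each group has 1 array. Over 18 alternatives, 1 of them added after seeing the data, both members stayed at least 2-fold higher in 17. In 13 (miR-1246) and 16 (miR-1290) they ranked first or second. Alternatives that changed only the filter could not move the member values, and both readings of the authors' table share theirs. Since the pair were chosen on this difference, the tally is a description and no test. The exception in direction was normexp with the column headed BG_Median as background, at -0.41 for miR-1246 and -0.027 for miR-1290, with 20 miRNAs at least 2-fold higher. Values for miR-1246, miR-1290 and the count of miRNAs at least 2-fold higher (7 in the main setting) were 2.08, 2.40 and 49 after BLANK subtraction with quantile normalization. They were 2.16, 2.37 and 53 after BLANK subtraction without scaling, with the plain or the trimmed BLANK mean. In the authors' deposited table they were 2.19, 2.41 and 62, and 2.19, 2.41 and 49 under its own row names. With Spike Control scaling they were 1.33, 1.17 and 2, and with the column headed BG_Median read as a signal 2.44, 2.86 and 49. miR-1290 was 2.15 with an offset of 16, which gave 16 miRNAs, and 1.99 with the No Probe spots in normexp. The count alone moved without scaling (19), with median scaling (20) and with scaling to the 75th percentile (23). The cause was not tested. The HuH-7-P reading of miR-1290 is the one that background limits most.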
